A study of Mus musculus with 9 samples.

Results

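The genes described here are 9 genes of the amino acid stress response that the transcription factor ATF4 controls: Atf4, Ddit3, Chac1, Trib3, Sesn2, Asns, Phgdh, Psat1 and Psph. They were chosen by name, and every probe set to which the platform annotation gave exactly 1 gene, that gene being one of the 9, was taken. This gave 18 of the 22690 probe sets on the array. A filter on dim probe sets left 13 of the 18, for 8 of the 9 genes, among 15838 probe sets tested. Psat1 had no probe set above the filter.

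RNA from mouse liver was measured on 9 Affymetrix arrays in 3 groups of 3. T-TSU livers came from mice that carried a tumour and received TSU68, an oral inhibitor of the VEGF, PDGF and FGF receptor tyrosine kinases, at 400 mg/kg per day for 1 week from day 7 after implantation. T-Co livers came from mice with the same tumour on vehicle, and NT-Co livers from mice without tumour on vehicle. The mice with tumour were BALB/c nu/nu males, which lack a thymus and so keep few T cells. They were 6 weeks old when the human colon cancer TK-4 was put into the cecal wall. The sampled organ was therefore not the one that held the implant. The sources used here do not give strain, sex or age for NT-Co mice, nor feeding or the time of day at collection.

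Cells that run short of an amino acid, or whose endoplasmic reticulum is overloaded, activate kinases that phosphorylate the translation factor eIF2alpha: GCN2 (Eif2ak4) responds to uncharged tRNA and PERK (Eif2ak3) to unfolded protein. Translation then falls in general while that of the Atf4 mRNA rises, so ATF4 activity is set largely by translation, and an array, which measures RNA, reads it only through its target genes. ATF4 pairs with C/EBP proteins on composite C/EBP-ATF elements and switches on amino acid transporters, asparagine and serine synthesis, tRNA synthetases and feedback regulators. In the liver the pathway is known for its response to diets that lack an essential amino acid.

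In T-Co livers, Chac1 was 2.99-fold higher than in NT-Co livers and passed the test. It was 1 of the 13 probe sets (7.69%), and 6.54% of all probe sets tested passed there. The first Trib3 probe set lay above every NT-Co array without passing the test. None of the 13 probe sets passed the test between T-TSU and T-Co livers, where only 0.0505% of all probe sets did. Ddit3 was lowest in T-TSU livers, below every NT-Co array, and also did not pass. Atf4 itself, asparagine synthetase and the serine synthesis genes Phgdh and Psph passed no test, and Psat1 was too dim to test.

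All arrays had been scaled to a common level by the authors. Array medians ranged from 108 to 120, and arrays correlated with the rest of their own group at 0.947 to 0.964 on average. Summed intensities of the 8 hepatocyte markers, albumin among them, ranged over 248930 to 261740 in T-TSU, 285958 to 301973 in T-Co and 251450 to 275114 in NT-Co, so the labelled tissue was borne out. For RNA integrity, the actin control probe sets gave 3' over 5' ratios of 2.02 ± 0.20 in T-TSU, 1.98 ± 0.11 in T-Co and 2.72 ± 0.44 in NT-Co (SD, n = 3 each). The Gapdh ratio was 0.767 in T-TSU, 0.765 in T-Co and 0.765 in NT-Co. The part of the actin difference in the results against NT-Co was not tested. T-TSU and NT-Co values are each compared with the same T-Co arrays, and T-Co and T-TSU values with the same NT-Co arrays, so the 3 comparisons are not independent.

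Intensities are linear and each probe set has its own scale, so levels are compared between samples and never between probe sets. Log2 differences are of log2(intensity + 7.92) with their standard error (SE) from limma, and p-values were adjusted by Benjamini and Hochberg's method over the 15838 probe sets, with a call below 0.05. Arrays are named by the replicate numbers of the labels. Values for a gene are listed in the order replicates 2, 12 and 14 for T-TSU, 9, 10 and 13 for T-Co, and 8, 10 and 11 for NT-Co.

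**Figure D1:**
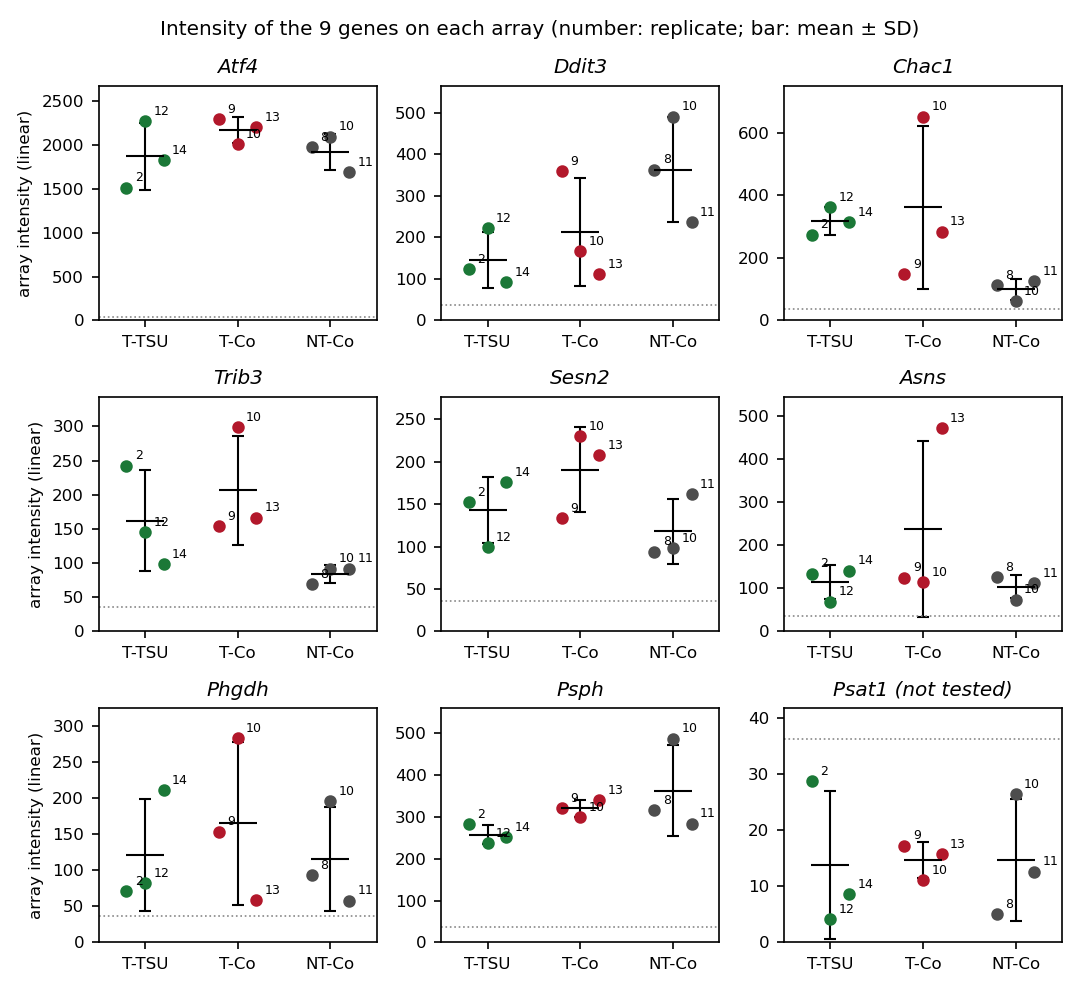
Intensity of the brightest probe set of each of the 9 genes on each of the 9 arrays, with groups along the horizontal axis and linear intensity from 0 on the vertical axis. Each point is an array with its replicate number, and bars are mean ± SD (n = 3). The dotted line marks the filter, which was applied to mean log2 intensity, at its linear value of 36.2. Chac1 lies at 148 to 651 in T-Co and at 62.1 to 125 in NT-Co, while the Atf4 groups overlap.

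ATF4 is the hub of the pathway. Its brightest probe set (1448135_at) read 1514, 2272 and 1826 in T-TSU, 2296, 2011 and 2206 in T-Co, and 1974, 2096 and 1692 in NT-Co. The 3 groups overlapped, and the difference of T-Co from NT-Co was 0.18 ± 0.16 (limma, adjusted p = 0.559). T-TSU differed from T-Co by -0.23 ± 0.16, with a 95% interval of -0.57 to 0.11 (limma, adjusted p = 0.649), and from NT-Co by -0.052 ± 0.16 (limma, adjusted p = 0.922). A second probe set (1438992_x_at) averaged 330 in T-TSU, 453 in T-Co and 425 in NT-Co and likewise passed no comparison. The third lay under the filter.

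Ddit3 encodes CHOP, a bZIP factor that ATF4 induces and that is linked to cell death in prolonged stress. Its probe set (1417516_at) read 124, 222 and 91.7 in T-TSU, 359, 167 and 111 in T-Co, and 363, 490.4 and 236 in NT-Co. The T-TSU arrays all lay under the lowest NT-Co array, and the T-Co arrays spread over both ranges. T-TSU was lower than NT-Co by 1.30 on the log2 scale (-1.30 ± 0.42), and limma's adjusted p was 0.118. In a fit of those 2 groups only, the adjusted p was 0.0468. T-Co minus NT-Co was -0.85 ± 0.42 (limma, adjusted p = 0.253). T-TSU minus T-Co was -0.45 ± 0.42 (95% interval -1.35 to 0.46, limma adjusted p = 0.758). Ddit3 thus had the opposite sign from Chac1 and Trib3 in both comparisons with NT-Co.

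Chac1 encodes a gamma-glutamylcyclotransferase that breaks down glutathione and is among the best known targets of ATF4. Its start on GRCm38.p6 lies on the plus strand of chromosome 2. The 250 bases before it (chr2:119350992-119351241, RefSeq) are shown because they hold both of the letter patterns searched for as resembling C/EBP-ATF elements (TGACGNAA and TGATGNAA), in capitals. The first, TGACGCAA, lies at bases -250 to -243 and the second, TTGCATCA, at -193 to -186, a match to TGATGNAA on the other strand.
Chac1: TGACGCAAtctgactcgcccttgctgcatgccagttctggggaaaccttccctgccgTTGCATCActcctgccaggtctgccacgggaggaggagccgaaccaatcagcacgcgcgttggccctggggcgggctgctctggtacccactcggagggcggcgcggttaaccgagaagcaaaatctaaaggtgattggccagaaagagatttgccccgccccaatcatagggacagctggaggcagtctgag

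The Chac1 probe set (1451382_at) read 274, 363 and 314 in T-TSU, 148, 651 and 283 in T-Co, and 112, 62.1 and 125 in NT-Co. Both tumour groups lay wholly above the NT-Co arrays. Group means were 317 ± 44.4 in T-TSU, 361 ± 261 in T-Co and 99.6 ± 33.1 in NT-Co (SD, n = 3 each), so T-Co spread far more widely than the others. T-Co was higher than NT-Co by 1.58 ± 0.42 (limma, adjusted p = 0.0446). T-TSU was higher than NT-Co by 1.64 ± 0.42, a 3.11-fold difference that narrowly missed the threshold (limma, adjusted p = 0.0523). It passed with the filter at the 50th percentile (0.0439), with arrays centred on their median (0.0431) and in a fit of those 2 groups only (0.00525). T-TSU and T-Co differed by 0.058 ± 0.42 (limma, adjusted p = 0.979), and the 95% interval of -0.86 to 0.98 is wide enough to hold sizeable differences in either direction.

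Leaving out 1 array lowered the calls over the whole table from 1036 to between 445 and 960. Of the 6 such fits, 1 kept the T-Co call for Chac1. That call was kept without T-Co 9 (2.08, limma adjusted p = 0.00827). It was lost without T-Co 10 (1.04, 0.0983), T-Co 13 (1.63, 0.0832), NT-Co 8 (1.69, 0.0952), NT-Co 10 (1.30, 0.134) or NT-Co 11 (1.76, 0.0795), each given as log2 difference and limma adjusted p. It was also lost with no filter (0.0633), with no intensity trend (0.111), with a robust trend (0.0583) and in a fit of the 2 groups alone (0.0852). The log2 difference was 1.04 to 2.08 with 1 array left out and 1.40 to 1.65 under the other settings.

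Trib3 encodes a pseudokinase that ATF4 and CHOP induce, and that inhibits Akt and feeds back on ATF4. The 250 bases before its start, on the minus strand of GRCm38.p6 (chr2:152344061-152344310, RefSeq), are shown beside Chac1 for contrast. They hold no TGATGNAA or TGACGNAA, and TTACATCA, a TGATGNAA on the other strand, lies just past the start at bases 15 to 22.
Trib3: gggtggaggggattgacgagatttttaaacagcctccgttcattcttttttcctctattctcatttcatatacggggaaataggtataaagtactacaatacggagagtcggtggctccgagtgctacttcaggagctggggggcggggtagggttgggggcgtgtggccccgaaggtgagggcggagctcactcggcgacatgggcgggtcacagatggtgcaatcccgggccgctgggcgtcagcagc

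The first Trib3 probe set (1426065_a_at) read 243, 146 and 98.3 in T-TSU, 154, 299 and 166 in T-Co, and 69.4, 91.7 and 91.8 in NT-Co. The NT-Co arrays were the lowest 3 of the 9. T-Co minus NT-Co was 1.17 ± 0.34 and missed the threshold (limma, adjusted p = 0.0599), though it passed with the filter at the 50th percentile (0.0498). T-TSU minus NT-Co was 0.80 ± 0.34 (limma, adjusted p = 0.247). T-TSU minus T-Co was -0.36 ± 0.34, with a 95% interval of -1.09 to 0.37 (limma, adjusted p = 0.759).

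A second Trib3 probe set (1456225_x_at) read 195, 176 and 107 in T-TSU, 122, 293 and 118 in T-Co, and 19.7, 98.7 and 148 in NT-Co. Here NT-Co 11 lay inside the range of both tumour groups. T-Co minus NT-Co was 1.14 ± 0.56, close in size to the first probe set but with a wider error (limma, adjusted p = 0.252).

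Sesn2 encodes a leucine sensor that restrains mTORC1 and is induced by ATF4. Its brighter probe set (1425139_at) read 152, 99.7 and 176 in T-TSU, 134, 229.9 and 208 in T-Co, and 94.0, 97.7 and 162 in NT-Co. The groups overlapped, and T-Co minus NT-Co was 0.66 ± 0.30 (limma, adjusted p = 0.218). T-TSU minus T-Co was -0.40 ± 0.30 (95% interval -1.05 to 0.25, limma adjusted p = 0.687). The dimmer probe set (1451599_at) read 87.1, 205 and 119 in T-TSU, 65.7, 183 and 117 in T-Co, and 36.1, 35.9 and 100.1 in NT-Co. Its differences from NT-Co were 1.21 ± 0.46 for T-TSU (limma, adjusted p = 0.194) and 1.02 ± 0.46 for T-Co (limma, adjusted p = 0.214), so neither passed.

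Asns encodes asparagine synthetase, which makes asparagine from aspartate and glutamine and is the classic gene of the amino acid response. Its start lies on the minus strand of GRCm38.p6, and the 250 bases before it (chr6:7693210-7693459, RefSeq) are shown because they hold TGATGAAA, in capitals, at bases -23 to -16.
Asns: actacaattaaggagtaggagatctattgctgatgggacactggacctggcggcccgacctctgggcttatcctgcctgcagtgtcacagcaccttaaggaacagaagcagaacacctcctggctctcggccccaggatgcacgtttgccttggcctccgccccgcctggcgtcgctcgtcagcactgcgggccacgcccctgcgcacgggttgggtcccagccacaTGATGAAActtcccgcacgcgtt

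The brighter Asns probe set (1451095_at) read 134, 68.8 and 141 in T-TSU, 125, 114 and 472 in T-Co, and 126, 74.0 and 112 in NT-Co. One array, T-Co 13, stood far above the other 8, which lay between 68.8 and 141. T-Co minus NT-Co was 0.86 ± 0.47 (limma, adjusted p = 0.317), and without T-Co 13 it was 0.22. The dimmer probe set (1433966_x_at) showed the same array at 359, against 1.20 to 64.0 on the other 8. T-TSU minus T-Co was -0.76 ± 0.47 on the brighter probe set (limma, adjusted p = 0.622), and -0.12 without T-Co 13.

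Phgdh, Psat1 and Psph catalyse the first, second and last step of serine synthesis from a glycolytic intermediate. Psph (1415673_at) read 282, 238 and 252 in T-TSU, 320.4, 300.2 and 340.5 in T-Co, and 317, 487 and 284 in NT-Co. Every T-TSU array lay below every T-Co and NT-Co array, though the highest T-TSU array, at 282, nearly met the lowest NT-Co array, at 284. T-TSU minus T-Co was -0.31 ± 0.21 (95% interval -0.76 to 0.14, limma adjusted p = 0.644) and T-TSU minus NT-Co was -0.45 ± 0.21 (limma, adjusted p = 0.298), so neither passed.

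Of 4 Phgdh probe sets, 2 were tested. The first (1426658_x_at) read 70.5, 82.5 and 211 in T-TSU, 153, 283 and 58.5 in T-Co, and 92.9, 195 and 57.8 in NT-Co. Its arrays spread as widely within groups as between them, and T-TSU minus T-Co was -0.33 (limma, adjusted p = 0.882). The second (1456584_x_at) gave the opposite sign, 0.59 (limma, adjusted p = 0.770). In T-Co against NT-Co they also differed in sign, at 0.40 (limma, adjusted p = 0.736) and -0.52 (limma, adjusted p = 0.660). Among the untested probe sets, 1454714_x_at read 87.5, 39.6 and 41.8 in T-TSU and 16.1, 27.0 and 14.7 in T-Co. Its NT-Co arrays read 13.6, 54.8 and 54.0. Every T-TSU array of it lay above every T-Co array, at signals around the filter. Phgdh has close copies in the genome, and 2 further probe sets annotated to Phgdh together with another gene were not members.

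Psat1 was dim on every array. Its higher probe set (1454607_s_at) read 28.7, 4.10 and 8.55 in T-TSU, 17.2, 11.1 and 15.7 in T-Co, and 5.07, 26.4 and 12.6 in NT-Co, all under the filter at 36.2. Its other probe set reached at most 13.7. No difference in Psat1 was detectable at these signals.

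**Figure D2:**
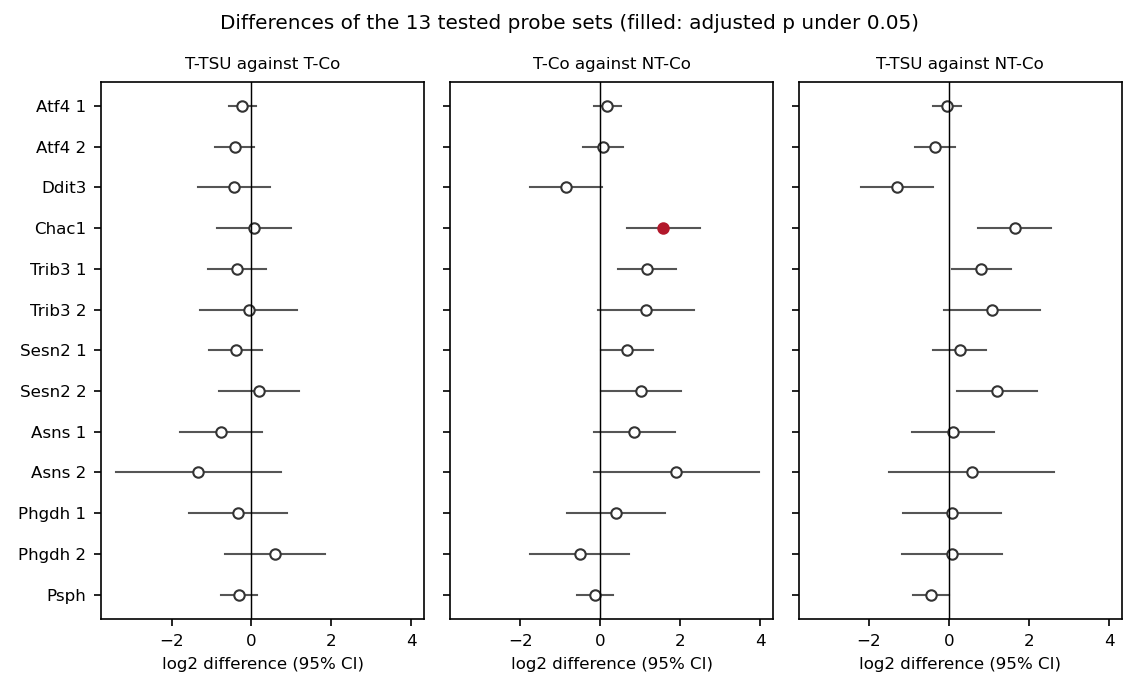
Log2 difference of each tested member probe set in the 3 comparisons, with 95% intervals from limma as bars and a line at 0. Chac1 and the first Trib3 probe set lie at 1.58 and 1.17 in T-Co against NT-Co, and in T-TSU against T-Co every interval crosses 0.

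In T-Co against NT-Co, 1 of the 13 member probe sets was called, Chac1, higher, which is 7.69% of them. Over all probe sets 6.54% were called, 4.16% higher and 2.38% lower, so the members' share lay near that of the whole table. At an unadjusted p under 0.05 there were 4 of 13 (30.8%), against 22.2% of all. The median difference was 0.66 over the members and 0.0070 over all probe sets tested, and 10 of the 13 lay above 0. In 2 of 13 the groups did not overlap, both higher, and among all probe sets tested 26.9% did not overlap, 14.4% higher and 12.5% lower.

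In T-TSU against T-Co, limma called 0 of 13 members, and 0 had an unadjusted p under 0.05, against 10.5% of all probe sets. The background was low too, with 0.0505% of all probe sets called, 0.0379% higher and 0.0126% lower. The median was -0.33 for the members and -0.0090 for all, with 10 of 13 below 0. Of the 13 tested, only Psph had groups that did not overlap, lower, against 14.1% of all probe sets (6.75% higher and 7.39% lower).

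In T-TSU against NT-Co, limma called 0 of 13, against 3.85% of all probe sets (2.49% higher and 1.36% lower), and 4 of 13 had an unadjusted p under 0.05, against 16.9% of all. Groups did not overlap in 4 of 13: Chac1 and the first Trib3 probe set were higher, and Ddit3 and Psph lower. Among all probe sets 24.2% did not overlap, 12.7% higher and 11.6% lower. The median was 0.10, against -0.00098 for all. By limma's F test over the 3 groups, 0 of 13 were called, against 5.7% of all, and 4 of 13 had an unadjusted p under 0.05, against 20.8% of all.

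**Figure D3:**
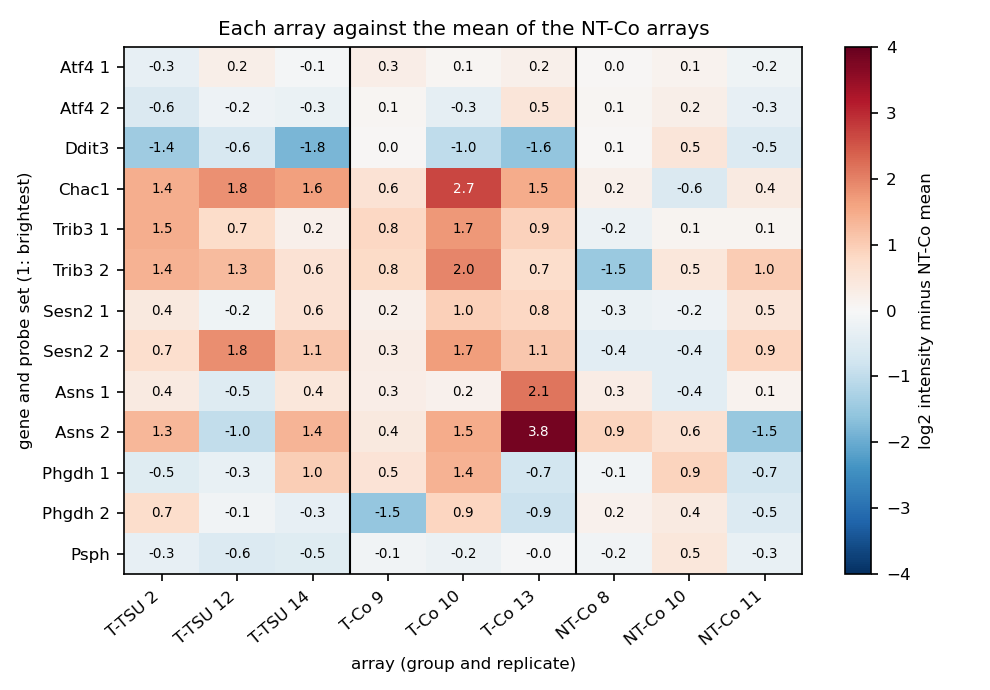
Difference of each array from the NT-Co mean on the log2 scale for the 13 tested probe sets (down) and the 9 arrays (across, T-TSU, T-Co, NT-Co), with colour from -4 to 4. Single arrays, such as T-Co 13 in both Asns probe sets, stand apart from their group.

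The T-Co arrays did not move together across the genes. T-Co 10 was the highest of its group in 7 of 13 probe sets, T-Co 13 in 4 and T-Co 9 in 2. T-Co 9 was the lowest of its group in 6. Chac1, Trib3 and Sesn2 peaked in T-Co 10, Asns in T-Co 13, and Ddit3 and the brighter Atf4 probe set in T-Co 9. The wide T-Co spreads of Chac1 and Asns thus came from different arrays.

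Among all 32851 RefSeq windows of GRCm38.p6 from 250 bases before to 50 after a start, searched on both strands, 3.97% held TGATGNAA, 1.59% held TGACGNAA and 0.119% held the endoplasmic reticulum stress element (CCAAT and CCACG with 9 bases between them). The 9 member genes all had a window, and the counts were 3 of 9 (Asns, Chac1, Trib3), 1 of 9 (Chac1) and 0 of 9. These motifs do not overlap each other in the members' windows. A match is only a match of letters. The members were chosen as genes that ATF4 controls, and genes are counted here beside shares of windows. The counts are therefore a description and no test.

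Of 97 other genes listed for the pathway, 85 had a probe set of their own and 78 were tested. In T-Co against NT-Co, 5 were called higher (6.41%, against 4.16% of all probe sets) and 2 lower (2.56%, against 2.38%), with 21 at an unadjusted p under 0.05 (26.9%, against 22.2% of all). In T-TSU against T-Co, limma called 0 of 78 (0.0505% of all probe sets), with 20 at an unadjusted p under 0.05 (25.6%, against 10.5% of all). In T-TSU against NT-Co, 3 were called higher (3.85%, against 2.49% of all) and 6 lower (7.69%, against 1.36%), with 24 at an unadjusted p under 0.05 (30.8%, against 16.9% of all). The medians of the 78 were -0.033, -0.12 and -0.19 in these comparisons, against 0.0070, -0.0090 and -0.00098 over all probe sets.

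**Figure D4:**
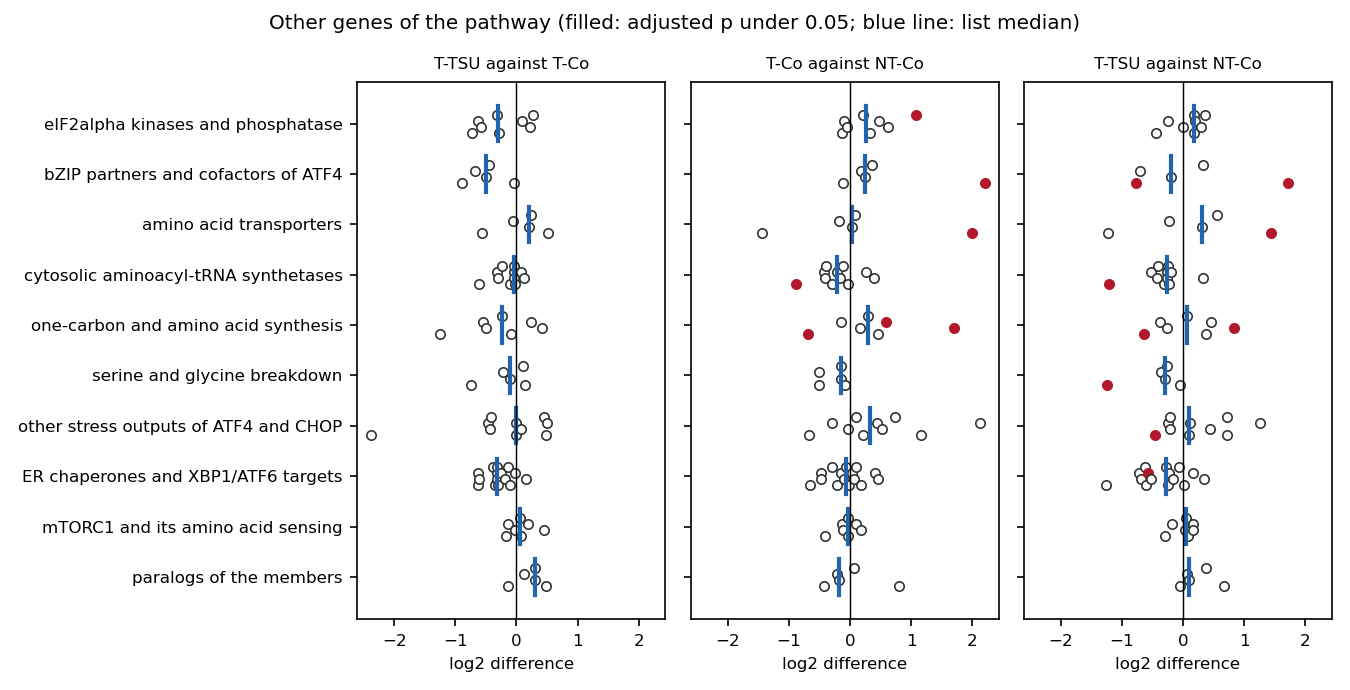
Log2 differences of the genes of each pathway list in the 3 comparisons, 1 point per gene by its brightest tested probe set, filled where called, with a blue line at the list median. In T-Co against NT-Co, 2 of 7 amino acid synthesis genes are called higher and 1 lower (4.16% and 2.38% of all probe sets). None of the listed genes is called in T-TSU against T-Co.

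Among the bZIP partners of ATF4, Cebpb, whose product C/EBP-beta pairs with ATF4, read 2817, 3939 and 4173 in T-TSU, 3049, 6982 and 6100 in T-Co, and 874, 1008 and 1480 in NT-Co. Both tumour groups lay above NT-Co. T-Co was higher by 2.20 ± 0.29 (limma, adjusted p = 0.00126) and T-TSU by 1.71 (limma, adjusted p = 0.00617). Atf5 read 1870, 2485 and 1485 in T-TSU and 3093, 2764 and 4097 in NT-Co, and was lower in T-TSU by 0.78 on the log2 scale (-0.78, limma adjusted p = 0.0388). That call was lost without NT-Co 8 (0.0939), NT-Co 11 (0.164), T-TSU 2 (0.0957) or T-TSU 14 (0.154). Atf3, an early stress factor, passed no test.

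Of the eIF2alpha kinases and phosphatase genes, 1 of 8 was called higher in T-Co against NT-Co (12.5%, against 4.16% of all probe sets). Ppp1r15a, the stress-induced subunit of the eIF2alpha phosphatase, read 100.3, 185 and 256 in T-TSU, 296, 271 and 284 in T-Co, and 110.5, 163 and 121 in NT-Co. The T-Co arrays were tightly grouped and above all others. The difference of 1.08 ± 0.29 (limma, adjusted p = 0.0474) lost its call without any 1 of the 6 arrays (0.0567 to 0.153). The kinase genes Eif2ak3 and Eif2ak4 passed no test.

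Of 5 amino acid transporters tested, limma called 1 higher in T-Co against NT-Co (20.0%, against 4.16% of all probe sets). It also called 1 higher in T-TSU against NT-Co (20.0%, against 2.49% of all) and 0 in T-TSU against T-Co. Slc38a2, the neutral amino acid transporter SNAT2 and an ATF4 target, read 2107, 2787 and 4121 in T-TSU, 3380, 4701 and 4895 in T-Co, and 1065, 849 and 1318 in NT-Co. It was higher by 2.00 ± 0.24 in T-Co (limma, adjusted p = 0.000902) and by 1.44 in T-TSU (limma, adjusted p = 0.00590). T-TSU and T-Co overlapped. Slc3a2, the heavy chain shared by several transporters, passed no test, and Slc7a11, the cystine transporter, lay under the filter.

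Of 11 cytosolic tRNA synthetases tested, limma called 0 higher and 1 lower in T-Co against NT-Co (4.16% and 2.38% of all probe sets). There 2 lay above 0 and 9 below 0, and 3 had an unadjusted p under 0.05 (27.3%, against 22.2% of all). In T-TSU against NT-Co it also called 0 higher and 1 lower (2.49% and 1.36% of all), with 1 above 0 and 10 below 0. At an unadjusted p under 0.05 there were 4 (36.4%, against 16.9% of all). The called gene in both was Tars1, the threonyl-tRNA synthetase, which read 1159, 1196 and 1089 in T-TSU, 1617, 1304 and 1408 in T-Co, and 2474, 3072 and 2483 in NT-Co. The 3 groups did not overlap. It was lower by 0.89 on the log2 scale in T-Co (-0.89 ± 0.14, limma adjusted p = 0.00328) and by 1.21 in T-TSU (-1.21, limma adjusted p = 0.000697), the opposite direction from Cebpb and Slc38a2.

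In amino acid synthesis, 2 of 7 genes were called higher in T-Co against NT-Co (28.6%, against 4.16% of all probe sets). Another 1 was called lower (14.3%, against 2.38% of all). Got1, the cytosolic aspartate aminotransferase, read 7507, 9644 and 7450 in T-Co and 2723, 2662 and 2158 in NT-Co, a difference of 1.70 ± 0.25 (limma, adjusted p = 0.00231). The T-TSU arrays read 2073, 4530 and 4320, of which 1 lay below all NT-Co arrays and the other 2 above them. Gpt2, the mitochondrial alanine aminotransferase, was higher by 0.59 ± 0.15 in T-Co (limma, adjusted p = 0.0396) and by 0.83 in T-TSU (limma, adjusted p = 0.0101). The T-Co call of Gpt2 was lost without NT-Co 8 (0.110), NT-Co 10 (0.105), NT-Co 11 (0.108), T-Co 9 (0.0778) or T-Co 10 (0.0897).

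Shmt2, the mitochondrial serine hydroxymethyltransferase, read 2032, 2767 and 1861 in T-Co and 3520, 3303 and 3734 in NT-Co. It was lower in T-Co by 0.68 on the log2 scale (-0.68 ± 0.15, limma adjusted p = 0.0189), and another Shmt2 probe set had the opposite sign. The call was lost without NT-Co 8 (0.0700), NT-Co 11 (0.0859), T-Co 9 (0.0535) or T-Co 13 (0.0506). In T-TSU against NT-Co, Cbs, which starts the conversion of homocysteine to cysteine with serine, was lower by 0.63 on the log2 scale (-0.63, limma adjusted p = 0.0110). That call was lost without NT-Co 11 (0.0613) or T-TSU 14 (0.0535). Mthfd2, the mitochondrial folate enzyme, passed no test.

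Of 5 genes of serine and glycine breakdown, Gldc, the decarboxylase of the glycine cleavage system, read 954, 659 and 1032 in T-TSU and 2030, 2395 and 1832 in NT-Co. It was lower by 1.25 on the log2 scale (-1.25, limma adjusted p = 0.00826), and the call was lost with no intensity trend (0.0540).

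Among 10 other stress outputs, Sqstm1, the autophagy receptor p62, was lower in T-TSU than in NT-Co by 0.46 on the log2 scale (-0.46, limma adjusted p = 0.0422). It lost the call without NT-Co 8 (0.135), NT-Co 10 (0.145), NT-Co 11 (0.0886), T-TSU 2 (0.131) or T-TSU 14 (0.140). Ddit4, an mTORC1 inhibitor, averaged 335 in T-TSU, 2033 in T-Co and 336 in NT-Co, with T-Co arrays from 387 to 3629. Neither T-Co minus NT-Co (2.12 ± 0.72, limma adjusted p = 0.102) nor T-TSU minus T-Co (-2.38 ± 0.72, limma adjusted p = 0.277) passed. Fgf21, a hormone that ATF4 induces in liver, passed no test.

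Of 15 endoplasmic reticulum chaperones and targets of XBP1 and ATF6, limma called 0 in T-Co against NT-Co, with 3 at an unadjusted p under 0.05 (20.0%, against 22.2% of all probe sets) and 9 below 0. In T-TSU against T-Co it called 0, with 4 at an unadjusted p under 0.05 (26.7%, against 10.5% of all) and 14 below 0. In T-TSU against NT-Co it called 1, lower (6.67%, against 1.36% of all). There 7 had an unadjusted p under 0.05 (46.7%, against 16.9% of all) and 12 lay below 0. The list medians were -0.060, -0.31 and -0.28 in these comparisons. The called gene, Calr, which encodes the chaperone calreticulin, read 11782, 12228 and 11727 in T-TSU and 16412, 18025 and 19088 in NT-Co, and was lower by 0.58 on the log2 scale (-0.58, limma adjusted p = 0.00672). With no intensity trend that call was lost (0.0732). Hspa5, the chaperone BiP, averaged 10164 in T-TSU, 16100 in T-Co and 16874 in NT-Co, and T-TSU minus NT-Co was -0.69 (limma, adjusted p = 0.0750). Xbp1 passed no test. None of 7 mTORC1 genes and none of 5 paralogs of the members, Trib1 and Sesn1 among them, was called in any comparison (limma). Over all probe sets 0.0505% were called in T-TSU against T-Co, 3.85% in T-TSU against NT-Co and 6.54% in T-Co against NT-Co. At an unadjusted p under 0.05 there were 1 mTORC1 gene and 1 paralog in T-TSU against T-Co (10.5% of all probe sets). There were 0 and 1 in T-TSU against NT-Co (16.9% of all), and 1 and 1 in T-Co against NT-Co (22.2% of all).

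Across the 9 arrays, the 3 genes with the pattern most like Chac1, out of 9224 compared, were Lpin2 (Pearson r = 0.98), Eif4ebp1 (0.98) and Gne (0.96). Lpin2, a phosphatidate phosphatase of lipid synthesis, averaged 2930 in T-TSU, 3149 in T-Co and 777 in NT-Co. Eif4ebp1, a translation repressor also listed among the other stress outputs, averaged 1956 in T-TSU, 1972 in T-Co and 1440 in NT-Co. Another Eif4ebp1 probe set had the opposite sign in each comparison. The genes most like Ddit3 were Dnajb1 (0.95), Syvn1 (0.93, also on the endoplasmic reticulum list) and Zfand2a (0.93). Dnajb1, a heat shock co-chaperone, averaged 652 in T-TSU, 912 in T-Co and 1352 in NT-Co. Those most like Trib3 were Ino80 (0.96), Mov10 (0.95) and Pitpnc1 (0.94). These correlations describe 9 arrays in 3 groups and are the highest of many.

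The liver samples hold several cell types, and fewer cells of a type and less RNA per cell cannot be told apart in such tissue. Summed intensities of the 9 macrophage markers ranged over 4629 to 9833 in T-TSU, 9992 to 14544 in T-Co and 7842 to 10560 in NT-Co. The 7 neutrophil markers summed to 560 to 872 in T-TSU, 918 to 2238 in T-Co and 654 to 922 in NT-Co. Camp lay under the filter. S100a8 averaged 164 in T-TSU, 538 in T-Co and 162 in NT-Co, and S100a9 averaged 163, 500 and 190. Of the 6 tested, 4 lay above 0 in T-Co against NT-Co and 2 below, Mpo (-0.79) and Elane (-0.30). None of the 6 was called in any comparison (limma). Endothelial markers (6 of 6) summed to 766 to 1218 in T-TSU, 1077 to 1712 in T-Co and 877 to 1093 in NT-Co. Stab2 was the brightest of them and averaged 417 in T-TSU, 509 in T-Co and 473 in NT-Co. In T-Co against NT-Co 5 of the 6 lay above 0 and 1 below, Tek (-0.15). Only Pecam1 was called there, higher (1.89, limma adjusted p = 0.0425), with means of 132 in T-Co and 34.6 in NT-Co. That is 16.7% of the list, against 4.16% of all probe sets called higher.

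Stellate cell markers (6) summed to 5651 to 6846 in T-TSU, 5159 to 5844 in T-Co and 6513 to 7082 in NT-Co. Col1a1 lay under the filter. Dcn held most of that sum and averaged 4189 in T-TSU, 3872 in T-Co and 4259 in NT-Co. Of the 5 tested, 4 lay below 0 in T-Co against NT-Co and 1 above, Lrat (0.88, limma adjusted p = 0.249). Only Col3a1 was called there (-1.03, limma adjusted p = 0.0101). Erythroid markers (4 of 5 measured) summed to 1315 to 2251 in T-TSU, 410.0 to 1175 in T-Co and 2090 to 2480 in NT-Co. Alas2 held most of that sum and averaged 1773 in T-TSU, 672 in T-Co and 2136 in NT-Co. Its T-Co minus NT-Co difference was -1.84 (limma, adjusted p = 0.0137). Hba-a1 and Epb42 lay under the filter. Pancreatic acinar markers (6 of 8 measured) summed to 1201 to 1937 in T-TSU, 878 to 1214 in T-Co and 2342 to 2481 in NT-Co. Cela1 held most of that sum and averaged 1256 in T-TSU, 605 in T-Co and 2173 in NT-Co, with T-Co minus NT-Co at -1.85 (limma, adjusted p = 0.00133). The other 2 acinar markers tested had the opposite sign there without passing, at 0.94 for Cela3b (limma, adjusted p = 0.462) and 1.38 for Prss2 (limma, adjusted p = 0.158). Cela2a, Cpa1 and Ctrb1 lay under the filter. Cholangiocyte markers (4 of 5 measured, Epcam and Krt7 under the filter) summed to 144 to 215 in T-TSU, 217 to 286 in T-Co and 192 to 264 in NT-Co. Lymphocyte markers (5 of 6 measured, Cd79a and Nkg7 under the filter) summed to 126 to 363 in T-TSU, 215 to 263 in T-Co and 183 to 359 in NT-Co. The part of these differences in the values of the stress genes was not tested.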

How the data were processed

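The authors deposited linear array intensities, already scaled between arrays. The sources used here do not name the software that made them. Arrays were hybridised with biotin-labelled cRNA, from 5 µg of total RNA per the labels' protocols. Groups and replicate numbers come from the sample titles, which do not say whether samples are separate animals. The p-values then cover only the spread among samples, which may be technical. Probe sets were named only where the platform annotation gave 1 gene (20380 of 22626 without controls, with 691 giving several and 1555 none).

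Tests used log2(intensity + 7.92), where 7.92 is the 10th percentile of the deposited intensities. This understates folds of dim genes. The 64 control probe sets, and 6788 whose mean log2(intensity + 7.92) lay under the 30th percentile, were left out. That cut corresponds to about 36.2 in linear intensity, and a probe set with a higher linear mean can still fall under it. A group-means model over all 9 arrays was fitted with limma 3.58.1 in R 4.3.3 (6 residual degrees of freedom, intensity trend, two-sided, Benjamini-Hochberg over 15838 probe sets). The fit was tested on simulated data. The number of arrays limits the precision. Promoters are RefSeq sequences.

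The member genes, the pathway and cell type lists and the tests were chosen with earlier results of these data known. Every member was named. From the lists, up to 4 called genes of each list per comparison and a fixed set of 18 genes were named, and a gene's brightest tested probe set stood for it. Gdf15 and Sds had no single-gene probe set and are not analysed here. For Chac1, Ddit3 and Trib3, the members with the widest range of group means, the 3 most correlated genes were named. Alternatives covered the pseudocount, the filter, the moderation, the normalization, the groups fitted and each array left out.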

Additional observations from a re-analysis of the deposited data

How the results depend on the processing

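No paired analysis was possible because T-Co and NT-Co share only the replicate number 10, and T-TSU shares no number with either. In T-Co against NT-Co the count of member probe sets called was 1, and it was 0 with no filter, no intensity trend, a robust trend or only the 2 groups, 2 with the filter at the 50th percentile, and 0 to 1 with 1 array left out. In T-TSU against NT-Co the count was 0, and it was 1 with the 50th percentile filter, 1 with arrays centred on their median and 2 with only the 2 groups. For any difference between the groups it was 0, and it was 1 with the 50th percentile filter, 1 with median centring and 0 to 1 with 1 array left out. In T-TSU against T-Co it was 0 under every alternative run. Over the whole table, T-Co against NT-Co gave 1036 calls (473 without the trend, and up to 1177 under other settings). With 1 array left out it gave 445 to 960. T-TSU against T-Co gave 8 (25 with a pseudocount of 32, 14 with a robust trend, 1 with quantile normalization, 0 with no filter, no trend, median centring or only the 2 groups, and 0 to 58 with 1 array left out). T-TSU against NT-Co gave 609 (265 without the trend, up to 879 under other settings, 287 to 494 with 1 array left out). The F test gave 902 (312 without the trend, up to 1012 under other settings, 355 to 1007 with 1 array left out).

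Signs turned only where 1 array was left out. The log2 differences then ranged, for T-Co against NT-Co, from -0.29 to 0.091 for Psph, from -0.13 to 0.28 for the second Atf4 probe set and from -0.095 to 0.97 for the first Phgdh probe set. For T-TSU against T-Co they ranged from -0.44 to 0.60 for Chac1, from -0.81 to 0.0040 for Ddit3, from -0.29 to 0.34 for the second Trib3, from -0.90 to 0.16 for the first Phgdh and from -0.17 to 0.51 for the second Sesn2 probe set. For T-TSU against NT-Co they ranged from -0.20 to 0.090 for the first Atf4, from -0.11 to 0.41 and -0.19 to 1.34 for the Asns, and from -0.39 to 0.51 and -0.23 to 0.28 for the Phgdh probe sets. The causes were not tested.

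Without the intensity trend the listed genes Ppp1r15a, Shmt2, Gpt2, Atf5, Cbs, Sqstm1, Calr (0.0732) and Gldc (0.0540) also lost their calls, by limma's adjusted p. Calls were also lost with a pseudocount of 1 (Ppp1r15a, 0.0504), no filter (Ppp1r15a 0.0756, Gpt2 in T-Co 0.0511, Sqstm1 0.0588), quantile normalization (Ppp1r15a 0.0568, Sqstm1 0.0518), median centring (Ppp1r15a 0.0612, Gpt2 in T-Co 0.0685) and only the 2 groups (Gpt2 in T-Co 0.0787). These alternatives for the listed genes were chosen after seeing the data. With 3 arrays a group, differences such as that of Ddit3 lay near what the spread allows to be called, and Psat1 was too dim to test.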

Other observations

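Of the 2 probe sets annotated to Phgdh together with another gene, and so outside the members, 1456471_x_at (with Gm6756) read 16.3, 161 and 157 in T-TSU, 24.7, 133 and 192 in T-Co, and 72.2, 34.0 and 14.5 in NT-Co. The lowest array of each tumour group lay inside the NT-Co range and the other 2 above it. The other, 1426657_s_at (with Gm8096), stayed at 4.75 or less on every array.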
